A study of Mus musculus with 45 samples.

Results

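The enzymes that turn acetyl-CoA into squalene were followed across liver, kidney and brain of mice fed cholesterol with and without Ganoderma lucidum extracts or simvastatin. The 9 genes were chosen by name, as enzymes of this route: Acat2, Hmgcs1, Mvk, Pmvk, Mvd, Idi1, Fdps, Fdft1 and Ggps1. All 9 were present, each with 1 row, among the 22080 genes of the deposited table. Male C57BL/6 mice aged 7 weeks were assigned to 5 diet groups of 8. The Control group ate the AIN-93 diet. The HCD group ate a high-cholesterol diet with 0.5% cholesterol. HCD+Gl-1 and HCD+Gl-2 added 1% of an extract of the mushroom to that diet, Gl-2 being from mushrooms grown on a substrate with 10 mM acetylsalicylic acid, and HCD+Sim added simvastatin at 0.03% by weight. Tissues were taken on day 43 after a fast of 8 hours. Each of the 15 tissue and diet groups held 3 arrays: pool A with RNA of 4 mice, pool B with RNA of the other 4, and pool C, a mix of A and B. The 3 arrays thus stand for 2 separate pools, and p-values measure the spread between these arrays, which is partly technical.

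The route starts in the cytosol, where ACAT2 joins acetyl-CoA units and HMGCS1 makes HMG-CoA. MVK, PMVK and MVD then phosphorylate and decarboxylate mevalonate into isopentenyl diphosphate, IDI1 isomerises it, and FDPS joins these isoprene units into farnesyl diphosphate. FDFT1 commits farnesyl diphosphate to squalene and sterols, while GGPS1 leads it away into geranylgeranyl diphosphate for protein prenylation. In liver most of these genes are textbook targets of SREBP-2, a transcription factor that is released from the endoplasmic reticulum when sterols are scarce.

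Values are log2 expression from arrays of the Affymetrix Mouse Gene ST type, so that a difference of 1 is a doubling, and levels are compared between arrays and not between genes. Array medians lay between 6.76 and 6.92. DE stands for differentially expressed and was used where the log2 fold change exceeded 0.7 in size, which is 1.62-fold, with an adjusted p of at most 0.05. Genes are said to have risen or fallen where the adjusted p alone was at most 0.05. Where counts of members at an unadjusted p under 0.05 are given, the share of all genes at that cut was not computed. Those counts thus have no background to be read against. Some label text of liver and kidney arrays speaks of brain, whereas their titles and tissue fields give liver and kidney. The mean of 6 hepatocyte markers was 13.24 to 13.38 on arrays titled liver and at most 9.17 on the others, and the kidney and brain marker lists were likewise highest on the arrays titled so (11.04 to 11.27 and 10.97 to 11.20). Pool C, although a mix, often lay outside the range of A and B for these enzymes. This was not particular to them, since 20.4% to 35.5% of all genes lay between A and B in any group. Pool C lay below both in 7 of 9 genes in the liver Control group (25.3% of all genes there). The same held for 7 of 9 in the kidney HCD+Gl-2 group (30.7%). It lay above both in 7 of 9 in the brain HCD+Gl-1 group. There 22.8% of all genes lay between A and B and 20.1% below both, the rest lying above both.

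In liver, mean levels were highest in the Control group for 7 of the 9 genes, and Fdps and Pmvk were lower in all 3 treated groups than in HCD. The mean over the 9 genes, each scaled to mean 0 and SD 1 over the 15 liver arrays, ran from 0.14 to 1.65 in Control, from 0.25 to 0.60 in HCD, from -0.74 to -0.39 in HCD+Gl-1, from -0.72 to -0.17 in HCD+Gl-2 and from -0.42 to -0.37 in HCD+Sim. The 9 treated arrays all lay below the 6 untreated ones, and Control overlapped HCD through its pool C. In bulk liver, fewer hepatocytes and less RNA per hepatocyte cannot be told apart.

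**Figure D1:**
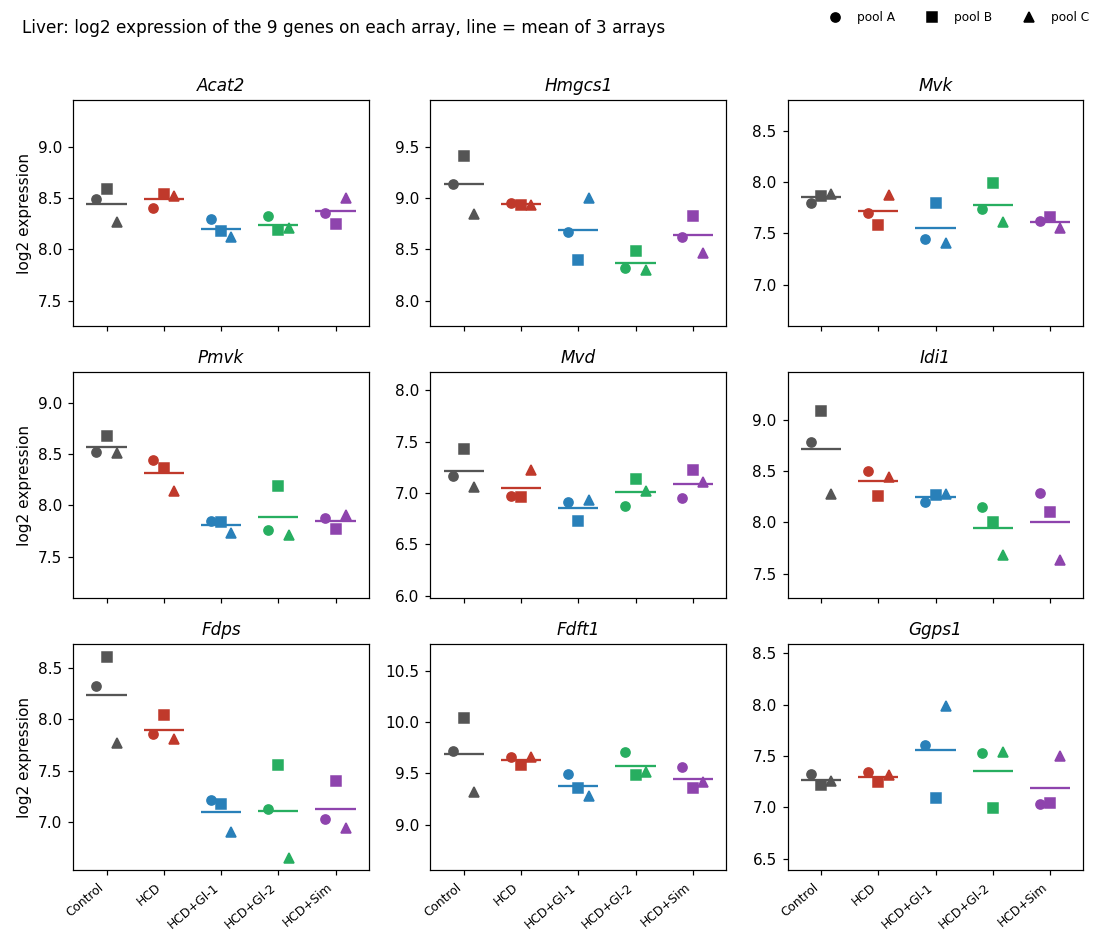
Log2 expression (vertical axis, the same span of 2.2 in each panel) of the 9 genes on the 15 liver arrays by diet group, with pools A, B and C as circles, squares and triangles and lines for the mean of 3 arrays. Fdps lay at 7.77 to 8.61 in Control and HCD and at 6.65 to 7.55 in the treated groups, while Ggps1 was widely spread within treated groups.

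The question of what cholesterol feeding alone did to these enzymes was addressed by HCD against Control. No member was DE in liver, where 54 genes (0.245%) were, and by limma none had an adjusted p of at most 0.05, while 2 (Pmvk and Idi1) had an unadjusted p under 0.05. The log2 fold change was negative for 7 of 9 members with a median of -0.17, against -0.01 over all genes. Fdps had the most negative value, -0.33 (95% interval -0.66 to 0.00, adjusted p = 0.488), followed by Idi1 at -0.32 (-0.60 to -0.03, adjusted p = 0.394). Without Control pool C the Idi1 difference was -0.54 with an adjusted p of 0.0323, and without Control pool B it was -0.13. Skeletal muscle marker means were lower in HCD livers (6.32 to 6.48) than in Control (6.77 to 6.94), and 1 of 10 markers fell. Liver macrophage marker means were also lower (8.21 to 8.22 against 8.45 to 8.63), and 1 of 5 markers fell. The part of these markers in the member values was not tested.

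Fdps, the farnesyl diphosphate synthase, was the member with the largest difference from HCD in each treated group. Its 3 arrays A, B and C read 8.32, 8.61 and 7.77 in Control and 7.85, 8.05 and 7.81 in HCD. Under HCD+Gl-1 they read 7.22, 7.18 and 6.902, under HCD+Gl-2 7.13, 7.55 and 6.65, and under HCD+Sim 7.03, 7.40 and 6.94. Every treated array lay below every HCD array. Such separation from the HCD arrays, in either direction, held for 14.7%, 15.2% and 13.4% of all genes under Gl-1, Gl-2 and simvastatin. Against HCD, Fdps fell by 0.80 ± 0.16 (SE) on the log2 scale under Gl-1, which is 1.74-fold (adjusted p = 0.0044). It fell by 0.79 ± 0.16 under Gl-2 (adjusted p = 0.0046) and by 0.78 ± 0.16 under simvastatin (adjusted p = 0.0086). It was DE in all 3 comparisons, and these share the same HCD arrays. DE genes in the lower direction made up 0.0679% of all genes under Gl-1, 0.0951% under Gl-2 and 0.0589% under simvastatin.

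The size of the Fdps difference was the same when fitted on the 15 liver arrays alone, but the calls were lost there, with adjusted p of 0.1675, 0.179 and 0.265. The median SD of the members within groups was 0.136 for liver, 0.066 for kidney and 0.086 for brain, and the fit over all 45 arrays takes 1 spread per gene from all 3 tissues. Single arrays also decided the calls: without its own pool C the Gl-1 difference was -0.70 (adjusted p = 0.0554), the Gl-2 difference -0.56 (0.101) and the simvastatin difference -0.69 (0.0609), and without HCD pool B the simvastatin difference was -0.70 and likewise missed the adjusted p threshold.

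Pmvk, which adds the second phosphate to mevalonate, fell in all 3 treated groups without reaching the fold change threshold. It read 8.52, 8.68 and 8.51 in Control and 8.44, 8.36 and 8.13 in HCD. The treated arrays read 7.84, 7.84 and 7.73 under Gl-1, 7.76, 8.19 and 7.71 under Gl-2, and 7.87, 7.77 and 7.91 under simvastatin. Only pool B of Gl-2 reached into the range of HCD. The differences from HCD were -0.51 ± 0.09 under Gl-1 (adjusted p = 0.00048), -0.43 ± 0.09 under Gl-2 (adjusted p = 0.0030) and -0.46 ± 0.09 under simvastatin (adjusted p = 0.0019). Without pool C of Gl-2 its difference was -0.34 with an adjusted p of 0.0588. On the liver arrays alone the adjusted p were 0.112, 0.191 and 0.224.

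Hmgcs1, the cytosolic HMG-CoA synthase, fell under Gl-2. HCD arrays were close together at 8.95, 8.93 and 8.93, and Gl-2 arrays read 8.32, 8.49 and 8.30, a difference of -0.57 ± 0.12 (adjusted p = 0.0054, or 0.1685 on the liver arrays alone). Under Gl-1 it read 8.67, 8.40 and 8.998, so that pool C lay above all HCD arrays (-0.25, adjusted p = 0.291). Under simvastatin it read 8.62, 8.83 and 8.47, all below HCD (-0.30, adjusted p = 0.286). Whether the value under Gl-2 differed from that under Gl-1 was tested directly, and the difference was -0.32 (95% interval -0.57 to -0.08, adjusted p = 0.120).

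Idi1, the isomerase, read 8.78, 9.09 and 8.27 in Control, 8.50, 8.26 and 8.44 in HCD and 8.19, 8.26 and 8.28 under Gl-1. It read 8.15, 8.00 and 7.68 under Gl-2 and 8.29, 8.10 and 7.63 under simvastatin, and the Gl-2 arrays all lay below the HCD arrays. Idi1 gave -0.15 under Gl-1, -0.45 under Gl-2 and -0.39 under simvastatin against HCD, with adjusted p of 0.655, 0.0961 and 0.199. Pool C was the lowest array in both of the latter groups. Acat2, the first enzyme of the route, gave -0.29 under Gl-1, where its arrays at 8.12 to 8.29 lay below all HCD arrays at 8.40 to 8.54, but the adjusted p was 0.0569. Acat2 gave -0.24 under Gl-2 and -0.12 under simvastatin.

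None of the remaining members passed the test against HCD. Mvk gave -0.17, 0.06 and -0.11, and Mvd, the decarboxylase, gave -0.19, -0.04 and 0.04 under Gl-1, Gl-2 and simvastatin against HCD. Fdft1, squalene synthase, gave -0.26, -0.06 and -0.19, with a lowest adjusted p of 0.176. Ggps1, the branch towards prenylation, was the only member with a positive value under Gl-1, 0.26 (95% interval -0.02 to 0.54, adjusted p = 0.3503). Its Gl-1 arrays read 7.61, 7.09 and 7.98, a spread wider than that of the HCD arrays at 7.25 to 7.34.

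**Figure D2:**
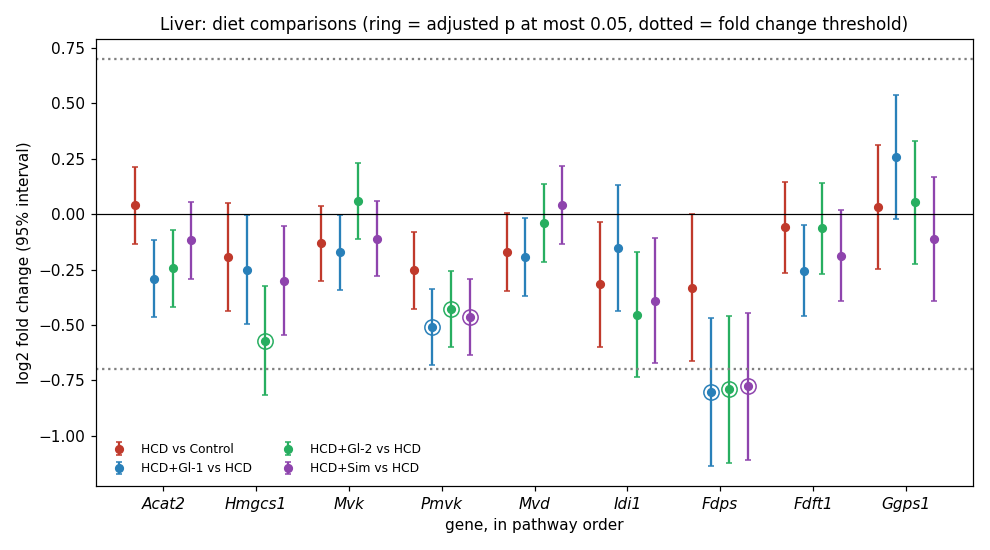
Log2 fold change in liver (vertical axis, with 95% intervals) of the 9 genes in pathway order, with 1 series for HCD against Control and 1 per treatment against HCD, with rings for an adjusted p of at most 0.05 and dotted lines at the fold change threshold of 0.7. The rings are on Pmvk and Fdps for the 3 treatments and on Hmgcs1 for Gl-2, and no ring is on HCD against Control.

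By counts, 2 of 9 members fell under Gl-1, 3 under Gl-2 and 2 under simvastatin, where 0.996%, 0.874% and 0.263% of all genes fell. No member rose. Leaving out pool B of Gl-1 gave 4 members that passed under Gl-1, with Mvk lower and Ggps1 higher, leaving out pool C of Gl-1 left Pmvk alone, leaving out pool C of Gl-2 left Hmgcs1 alone, and leaving out HCD pool B or pool C of simvastatin left Pmvk alone under simvastatin. The members' median log2 fold change was -0.25, -0.24 and -0.19, against -0.01, 0.01 and 0.03 over all genes. The mean of the hepatocyte markers differed little, and none of the 6 passed the test in these comparisons. The simvastatin livers also carried markers of other tissues. All 10 pancreas acinar markers were higher than in HCD, with means of 7.23, 7.79 and 6.09 in pools A, B and C against 5.84 to 5.95, and 7 of 10 skeletal muscle markers were higher, with means of 6.38 to 7.85 against 6.32 to 6.48. Their part in the member values was not tested. Pool C had the lowest acinar and muscle means of the 3. Of 5 liver macrophage markers 1 was higher under simvastatin than in HCD (means of 8.27 to 8.65 against 8.21 to 8.22), and its part was not tested either. No marker of these lists passed the test for Gl-1 or Gl-2 against HCD.

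Upstream sequence is shown for Hmgcs1 and Pmvk, which fell against HCD, for Idi1, which was DE against Control, and for Ggps1, which did not pass in any liver comparison, to show the letters that sterol-regulated promoters are known for. RefSeq promoter sequences (build GRCm38.p6) matched 7 of the 9 members, and the 250 bases before the annotated start were read. For Pmvk the entry at the annotated gene start was taken. Capitals mark, on either strand, CACNCCA (core of a sterol response element), CCAAT (bound by NF-Y, seen as ATTGG on the other strand) and GGGCGG (bound by Sp1, or CCGCCC on the other strand). The windows are chr13:119690101-119690350 (plus strand) for Hmgcs1, chr3:89454291-89454540 (plus) for Pmvk, chr13:8885356-8885605 (plus) for Idi1 and chr13:14063489-14063738 (minus) for Ggps1, each 5′ to 3′.
Hmgcs1: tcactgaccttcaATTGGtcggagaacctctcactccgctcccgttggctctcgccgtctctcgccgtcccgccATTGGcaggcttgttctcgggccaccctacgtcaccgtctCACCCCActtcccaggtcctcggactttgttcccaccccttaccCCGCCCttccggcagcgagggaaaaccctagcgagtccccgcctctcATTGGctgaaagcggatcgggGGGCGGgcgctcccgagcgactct
Pmvk: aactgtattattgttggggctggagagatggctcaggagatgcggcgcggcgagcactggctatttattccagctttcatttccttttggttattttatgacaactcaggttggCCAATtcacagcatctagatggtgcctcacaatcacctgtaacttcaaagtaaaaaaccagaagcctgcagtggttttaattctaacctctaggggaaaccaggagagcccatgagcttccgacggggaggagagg
Idi1: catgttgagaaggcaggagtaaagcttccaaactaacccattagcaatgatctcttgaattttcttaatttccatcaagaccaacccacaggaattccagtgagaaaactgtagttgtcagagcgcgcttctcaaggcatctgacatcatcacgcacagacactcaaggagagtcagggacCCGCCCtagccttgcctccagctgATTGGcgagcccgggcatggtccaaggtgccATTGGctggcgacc
Ggps1: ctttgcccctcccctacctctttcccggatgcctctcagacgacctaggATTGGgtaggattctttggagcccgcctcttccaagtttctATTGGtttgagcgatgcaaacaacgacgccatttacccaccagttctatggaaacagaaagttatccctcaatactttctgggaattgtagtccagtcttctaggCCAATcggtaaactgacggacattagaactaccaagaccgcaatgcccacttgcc

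CACNCCA was found in 2 of the 7 member windows, Hmgcs1 (136 bases before the start) and Acat2 (181 and 52 bases before it), and in 15.6% of the 32851 promoter entries. CCAAT was in 6 of 7 windows, with 5 copies in Mvk, 3 in Hmgcs1 and Ggps1, 2 in Idi1 and Mvd and 1 in Pmvk, against 33.8% of all entries. GGGCGG was in 5 of 7 windows against 32.7% of all entries, absent from these windows of Pmvk and Ggps1. The E-box type TCACNTGA was in none of the 7 and in 3.45% of all entries. None of the motifs overlapped another in the printed windows. Pmvk, which fell in all 3 treated groups, held 1 CCAAT and no CACNCCA in this window. Motif matches are a description of letters in 1 window and not of binding.

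The treated groups were also compared with Control, a difference that combines the cholesterol diet and the treatment. These comparisons share the Control arrays, pool C included. Under Gl-1, 2 of 9 members were DE, Fdps at -1.13 ± 0.16 (2.19-fold lower, adjusted p = 3.6e-05) and Pmvk at -0.76 ± 0.09 (adjusted p = 2.6e-07), where 0.195% of all genes were DE in that direction. Hmgcs1 (-0.44), Mvd (-0.36) and Mvk (-0.30) also fell, which makes 5 of 9 against 1.75% of all genes. Under Gl-2, 3 of 9 were DE against 0.281% of all genes, Fdps at -1.12 (adjusted p = 2.1e-05), Idi1 at -0.77 (adjusted p = 0.00048) and Hmgcs1 at -0.76 (adjusted p = 6.6e-05). Pmvk fell by 0.68, which makes 4 of 9 against 1.6%. Under simvastatin, 3 of 9 were DE against 0.14%, Fdps at -1.11 (adjusted p = 3.4e-05), Pmvk at -0.72 (adjusted p = 6.0e-07) and Idi1 at -0.71 (adjusted p = 0.0026), and Hmgcs1 fell by 0.49, which makes 4 of 9 against 0.543%. The Idi1 arrays of simvastatin reached 8.29, within the Control range, whose pool C read 8.27. No member rose against Control.

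The Fdps calls against Control were kept without any single array and on the liver arrays alone (adjusted p of 0.0248, 0.0163 and 0.0229). They were lost for Gl-2 and simvastatin on the 6 arrays of the compared groups alone, with adjusted p of 0.119 and 0.128. On the liver arrays alone, only Pmvk and Fdps fell against Control under Gl-1 and simvastatin, and only Hmgcs1, Pmvk and Fdps under Gl-2. The Idi1 calls under Gl-2 and simvastatin were lost there and on the compared groups alone. Without Control pool B only 1 member was DE under Gl-2 and 1 under simvastatin, Fdps in each. The number that fell under Gl-1 ran from 2 without Control pool B and 3 without Control pool A or pool A of Gl-1 to 7 without Control pool C, and under simvastatin it was 2 without Control pool B or pool C of simvastatin. The Control livers had higher skeletal muscle marker means, 6.77 to 6.94, than the Gl-1 (6.15 to 6.29) and Gl-2 (6.13 to 6.37) livers, and 5 and 3 of the 10 markers were lower there. Of 6 adipocyte markers 1 was lower under Gl-1 and 1 under Gl-2 (list means of 6.03 to 6.22 and 6.10 to 6.32 against 6.24 to 6.43 in Control). Under simvastatin 9 of 10 pancreas acinar markers and 1 of 10 skeletal muscle markers were higher than in Control. The part of these differences in the member values was not tested.

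Between treatments, no member was DE in liver, where 0.172% of all genes were for Gl-2 against Gl-1, 0.249% for Gl-1 against simvastatin and 0.285% for Gl-2 against simvastatin. By limma no member had an adjusted p of at most 0.05, and 3, 3 and 2 members had an unadjusted p under 0.05. For Fdps the difference between Gl-2 and Gl-1 was 0.01 (95% interval -0.32 to 0.34), between Gl-1 and simvastatin -0.02 (-0.36 to 0.31) and between Gl-2 and simvastatin -0.01 (-0.35 to 0.32). For Pmvk the same 3 differences were 0.08 (-0.09 to 0.25), -0.05 (-0.22 to 0.13) and 0.04 (-0.14 to 0.21). For Ggps1, Gl-1 was higher than simvastatin by 0.37 (0.09 to 0.65, adjusted p = 0.112), and it passed the test without pool B of Gl-1. Without that array Hmgcs1, Mvk and Ggps1 also passed between Gl-2 and Gl-1, and without pool A of simvastatin Mvd passed between Gl-1 and simvastatin.

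In kidney no member was DE in any of the 4 comparisons, where 0.0408% of genes were DE for HCD against Control and 0.131%, 0.335% and 0.14% for Gl-1, Gl-2 and simvastatin against HCD. By limma none had an adjusted p of at most 0.05, and the counts at an unadjusted p under 0.05 were 1, 0, 1 and 0. The lowest adjusted p was that of Idi1 under Gl-2, with HCD arrays at 9.43, 9.50 and 9.28 and Gl-2 arrays at 8.86, 9.17 and 8.83 (-0.45, 95% interval -0.73 to -0.17, adjusted p = 0.137). Fitted on the kidney arrays alone, Idi1 passed the adjusted p there without being DE. Its value under Gl-2 in liver was also -0.45, and the liver minus kidney difference was -0.003 (limma, adjusted p = 0.9985). Fdps in kidney lay at 6.14 to 6.51 on all 15 arrays, below the lowest array median of 6.76, a low level from which a fall could be missed. In brain no member was DE either, and 0.0317%, 0.00906%, 0.0226% and 0% of all genes were in the same 4 comparisons. No brain member had an adjusted or an unadjusted p under 0.05 by limma. Brain Fdps ranged from 6.54 to 7.20, and its values against HCD were 0.03, 0.15 and 0.15 under Gl-1, Gl-2 and simvastatin.

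**Figure D3:**
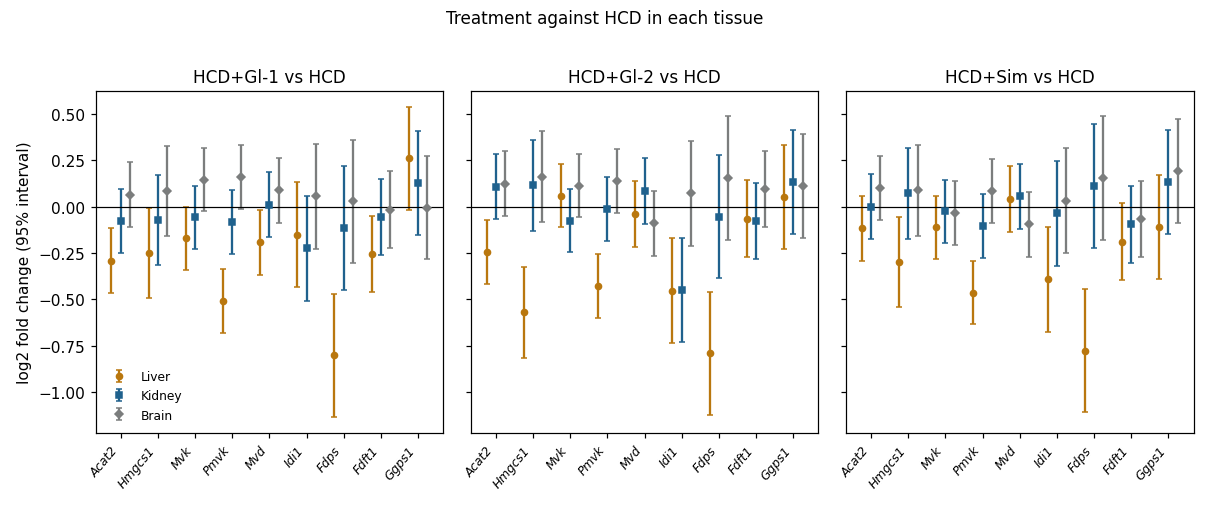
Log2 fold change against HCD (vertical axis, with 95% intervals) of the 9 genes in liver, kidney and brain, in 1 panel for each treatment. Liver values of Fdps and Pmvk lay at -0.43 or lower in every panel, while the kidney and brain values of both lay between -0.11 and 0.16.

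Whether the liver response differed from that of the other tissues was tested as a difference of differences. Against brain, the Gl-1 response of Pmvk was lower in liver by 0.67 (value -0.67 ± 0.12, adjusted p = 0.0065), 1 of 9 members where 0.236% of all genes passed in that direction. For Gl-2, Hmgcs1 (-0.73, adjusted p = 0.0303), Pmvk (-0.57, adjusted p = 0.0154) and Fdps (-0.95 ± 0.23, adjusted p = 0.0440) passed, 3 of 9 against 0.394%. Against kidney, Hmgcs1 under Gl-2 passed (-0.68, adjusted p = 0.0456), 1 of 9 against 0.331%. For Fdps the liver minus kidney values were -0.69, -0.74 and -0.89 for Gl-1, Gl-2 and simvastatin, with adjusted p of 0.248, 0.184 and 0.0916. For simvastatin no member passed in either comparison by limma, and 3 against kidney and 4 against brain had an unadjusted p under 0.05. No member passed between kidney and brain in any comparison, or for HCD against Control between any tissues. Leaving out single arrays took the number that passed for Gl-2 against brain from 3 to 0, and 9 of the 12 arrays changed that count by more than 1.5 times. The Hmgcs1 difference against kidney passed without pool B of liver Gl-2 and missed without any 1 of the other 11 arrays, and that of Pmvk under Gl-1 against brain passed without any 1 of 12.

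Mean levels under the Control diet are given first, and the tests between tissues follow with the shares of all genes. Hmgcs1 was highest in kidney, with means of 10.96 ± 0.16 (SD, n = 3) there, 9.61 ± 0.13 in brain and 9.13 ± 0.28 in liver. Idi1 was also highest in kidney (9.25), then liver (8.71), then brain (7.58). Fdps was highest in liver (8.23 ± 0.43), above brain (6.78) and kidney (6.43). Pmvk followed the same order, at 8.57, 7.79 and 7.39. Fdft1 was highest in brain (10.09), then liver (9.69), then kidney (8.70), and Ggps1 was highest in brain (8.78), then kidney (8.19), then liver (7.27). Mvd was highest in kidney (8.14), and Acat2 was higher in kidney (8.47) and liver (8.45) than in brain (7.69). Mvk lay at 7.85 in liver, 7.84 in brain and 7.66 in kidney.

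By test, 6 of 9 members were DE between liver and kidney, where 16.8% of all genes were, 5 of 9 between liver and brain, where 32.7% were, and 5 of 9 between kidney and brain, where 30% were. The largest differences between liver and kidney were Hmgcs1 at -1.83 ± 0.12 (3.55-fold lower in liver, adjusted p = 2.3e-16) and Fdps at 1.80 ± 0.16 (3.48-fold higher in liver, adjusted p = 3.1e-12). Between kidney and brain they were Idi1 at 1.67 ± 0.14 and Fdft1 at -1.39 ± 0.10. Neighbours that did not pass the test were Acat2 in liver and kidney (-0.03), Mvd and Mvk in liver and brain, Mvk in every pair, and Fdps in kidney and brain (-0.35, adjusted p = 0.0683). Tissues differ in every cell type they hold, and which cells carried these levels was not tested.

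**Figure D4:**
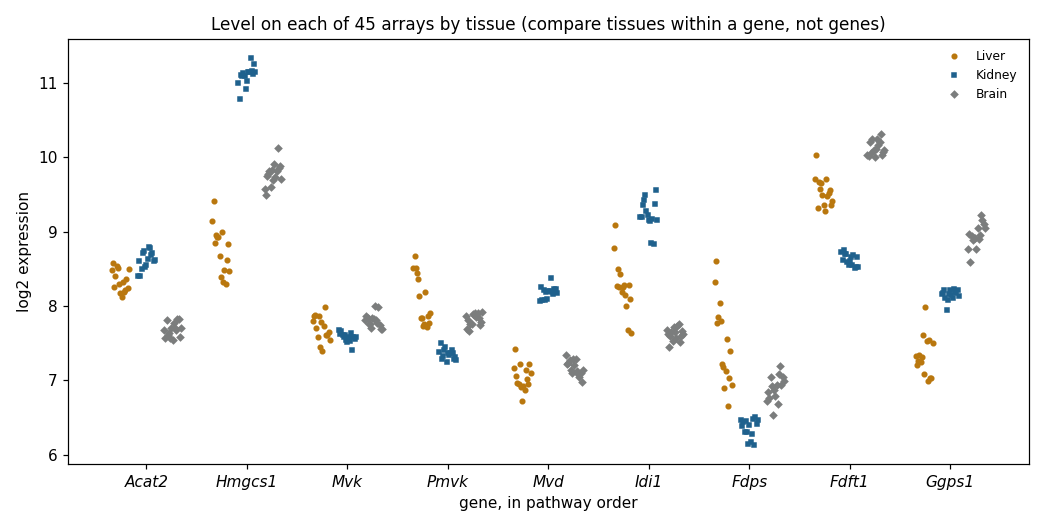
Log2 expression (vertical axis) of the 9 genes on all 45 arrays, 15 for each tissue. All kidney arrays lay above all liver and brain arrays for Hmgcs1 and Mvd, liver Fdps spread from 6.65 to 8.61, and Mvk overlapped between tissues.

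The members varied together more in liver than elsewhere, given here as descriptions since arrays share pools and processing. Whether other genes did so too was not tested. The members also varied more within groups in liver, with a median SD of 0.136 (0.113 over all genes). In kidney it was 0.066 (0.082 over all genes) and in brain 0.086 (0.093). Over the 15 liver arrays the correlation of a member with the mean of the other 8 was 0.90 for Fdps, 0.82 for Pmvk, 0.78 for Idi1, 0.77 for Hmgcs1, 0.71 for Fdft1, 0.65 for Acat2, 0.61 for Mvd, 0.33 for Mvk and -0.33 for Ggps1. Over the 36 pairs of members the median r was 0.51 for liver arrays, 0.06 for kidney arrays and 0.20 for brain arrays. Ggps1, which draws farnesyl diphosphate away from sterols, was thus the member least like the others in liver. By Pearson r, the genes of the whole table most like the members' mean over the 15 liver arrays were Rdh11 (0.93), Msmo1 (0.92), Acss2 (0.92), Chrna4 (0.92), Nsdhl (0.92), Tm7sf2 (0.90), Alox12 (0.89), Klk1b4 (0.89), Dhcr7 (0.88) and Lss (0.88). Of these, Msmo1, Nsdhl, Tm7sf2, Dhcr7 and Lss encode later sterol enzymes, and Acss2 encodes a synthetase of acetyl-CoA. The genes least like it were 1810013L24Rik (-0.90), Ndrg2 (-0.88), Agpat6 (-0.88), Nr1d2 (-0.87), Bach1 (-0.86), Stk35 (-0.86), Eif4g1 (-0.85), Nampt (-0.85), Wee1 (-0.85) and Usp2 (-0.84).

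The enzymes after squalene were read from a list of 11 measured genes. In liver 2 of 11 fell under HCD against Control, where 0.765% of all genes fell: Sqle, squalene epoxidase, at -0.92 ± 0.13 (adjusted p = 4.2e-05) and Cyp51, lanosterol demethylase, at -0.69 (adjusted p = 0.00025). Against HCD, 4 of 11 fell under Gl-1 (0.996% of all genes), 3 under Gl-2 (0.874%) and 3 under simvastatin (0.263%), and none rose. Nsdhl, a demethylating dehydrogenase of late sterols, was DE in all 3 (-0.76, -1.02 and -0.78). Dhcr7, a late reductase of cholesterol synthesis, fell in all 3 (-0.45, -0.62 and -0.64). Cyp51 fell under Gl-2 (-0.47) and simvastatin (-0.49), and Lss (-0.54) and Tm7sf2 (-0.35) fell under Gl-1. Sqle gave 0.21, -0.20 and 0.08 there and did not pass the test.

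Of 10 genes that control sterols, 1 rose and none fell in liver under HCD against Control, where 0.575% of all genes rose: Srebf1, which encodes the lipogenic SREBP-1, at 1.14 ± 0.14 (adjusted p = 1.8e-06). Against HCD 1 of 10 fell under Gl-1 (0.996% of all genes), Srebf1 by 0.80, and 1 of 10 under Gl-2 (0.874%), Insig2, which retains SREBPs in the endoplasmic reticulum, by 0.60. None of the 10 passed under simvastatin. Srebf2, which encodes SREBP-2, gave -0.13, -0.05 and -0.06 under Gl-1, Gl-2 and simvastatin against HCD in liver, none of which passed. None of 12 genes of the prenyl branch passed in liver in any comparison by limma. In kidney 2 of these 10 control genes rose under Gl-2 against HCD, where 0.539% of all genes rose, among them Mylip, which marks the LDL receptor for degradation, by 0.52 (adjusted p = 0.0067).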

How the data were processed

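RNA of liver, kidney and brain was hybridised to 45 Affymetrix arrays. The deposited values are log2 expression that the authors made with RMA and quantile normalization in oligo and ComBat in GenePattern, with the batch not given in the sources used here, keeping the probe set with the widest interquartile range for each of 22080 genes. ComBat can remove or add differences between groups where batch and group overlap. 13 gene names were turned into dates and were named nowhere. Values were fitted with limma 3.58.1 in R 4.3.3, with 1 mean per tissue and diet group over all 45 arrays, eBayes moderation and Benjamini-Hochberg adjustment over all genes in each comparison. Tissue differences of responses were contrasts of the same fit and were called at an adjusted p of at most 0.05 with no fold change threshold. An exact permutation test of 3 against 3 arrays cannot give a p under 0.1. Precision is limited by the number of arrays.

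The members and gene lists were chosen with earlier results of these data known. Named genes were all members, list genes with an adjusted p of at most 0.05 in the comparisons described, except some that are not reported here, and, over the 15 liver arrays, the 10 genes with the highest and the 10 with the lowest correlation with the members' mean. Alternatives were fits on fewer arrays or groups, dim genes left out, the mixed pool C left out, a block for the pool letter, quantile normalization within tissues, trend and robust moderation, calls without the fold change threshold, and leaving out every array in turn. Same-lettered pools correlated over 0.1 in every pair in 2 of 21 comparisons (Gl-2 against Gl-1 and Gl-2 against simvastatin in liver), where the block changed no call, and otherwise correlations ran down to -0.273.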

Additional observations from a re-analysis of the deposited data

Results flagged for a closer look

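These results drew attention because the response to a treatment in liver differed from that in another tissue by a test of the difference itself (limma, adjusted over all genes). For Gl-2 against HCD, the liver minus kidney difference of Hmgcs1 was -0.68. For Gl-1 against HCD, the liver minus brain difference of Pmvk was -0.67. For Gl-2 against HCD, the liver minus brain differences were -0.73 for Hmgcs1, -0.57 for Pmvk and -0.95 for Fdps. These comparisons share the liver HCD and treated arrays, and how firmly each stood with single arrays left out is given with the tissue comparisons above.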

How the results depend on the processing

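Of the alternatives to the counts of members, 212 stayed within 1.5 times the reported count and 25 did not; with single arrays left out these numbers were 239 and 31. The cause was not tested. Fitted on the tissue's own arrays, the number of DE members against HCD was 0 for Gl-1, Gl-2 and simvastatin in liver, and the Gl-2 liver minus kidney and liver minus brain counts were 0. On the compared groups alone, the liver counts were 0 for Gl-2 and 0 for simvastatin against HCD, 0 for Gl-2 and 1 for simvastatin against Control, 1 for simvastatin liver minus kidney and 0 for Gl-2 liver minus brain. On pools A and B only, they were 0 for Gl-2 against HCD, 4 for Gl-1 against Control, 1 for HCD against Control in liver minus kidney, 1 in liver minus brain, and 0 for Gl-2 liver minus brain. With the pool letter as a replicate block, Gl-2 liver minus kidney gave 0, simvastatin liver minus kidney 1 and simvastatin liver minus brain 2, and the block moved no other count by more than 1.5 times. Without dim genes, and with trend and robust moderation, simvastatin liver minus brain gave 1. With no fold change threshold, 2, 3 and 2 members passed for Gl-1, Gl-2 and simvastatin against HCD and 5 for Gl-1 against Control.

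With each array left out in turn, DE counts ran from 0 to 1 for each treatment against HCD in liver, from 1 to 4 for Gl-2 and from 1 to 3 for simvastatin against Control. Liver minus kidney counts ran from 0 to 1 for Gl-1, 0 to 3 for Gl-2 and 0 to 1 for simvastatin, and liver minus brain counts from 1 to 3, 0 to 3 and 0 to 1. Signs turned only for values that did not pass. On pools A and B only, Acat2 was -0.0663 for HCD against Control, and Mvd 0.0393 and Ggps1 -0.0333 for Gl-2 against HCD. With arrays left out, HCD against Control ran from -0.0509 to 0.11 for Acat2 and from -0.24 to 0.11 for Fdft1, Gl-2 against HCD ran from -0.0454 to 0.14 for Mvk, from -0.10 to 0.0461 for Mvd and from -0.0387 to 0.23 for Ggps1, and simvastatin against HCD ran from -0.0221 to 0.13 for Mvd.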
